A study of Rattus norvegicus with 8 samples.

Results

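The genes described here load peptides onto MHC class I molecules: the class I heavy chains RT1-A3 and RT1-CE16, their partner B2m, the transporter genes Tap1 and Tap2, the loading factor Tapbp, the immunoproteasome subunits Psmb8, Psmb9 and Psmb10, and the regulator Nlrc5. They were chosen by name, and a probe was assigned to a gene through its RefSeq accession. Of the 10 genes, 9 had a probe, and all 9 were among the 25128 features tested across the array. No probe matched Nlrc5, the class I transactivator, so it has no value here. Liver RNA came from male Wistar/ST rats, and every animal ate a high-fat diet and drank fructose-rich water for 5 weeks. The control group (4 arrays) received nothing else, and the Eucommia group (4 arrays) was given Eucommia ulmoides leaf extract to drink as well. The leaves of this tree are brewed as tea. The comparison asks which liver transcripts differ when the leaf extract is added to that diet. Parts of each rat's liver were kept, according to the labels, but whether every array represents its own animal is not spelled out. The p-values below describe only how much these samples vary, which may be technical.

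As background, class I molecules display fragments of the cell's own proteins at the surface, where CD8 T cells and NK cells read them. The proteasome cuts the fragments, the Tap1-Tap2 pump carries them into the endoplasmic reticulum, and tapasin (Tapbp) holds the empty heavy chain with B2m beside the pump until a peptide fits. Interferons raise most of these genes together, and Psmb8, Psmb9 and Psmb10 then replace the constitutive catalytic subunits Psmb5, Psmb6 and Psmb7. Hepatocytes at rest are known to carry little class I at their surface, and Kupffer and endothelial cells carry more. RT1 is the rat MHC. Its class I genes are close relatives that differ in number and sequence between rat strains, so a probe named for 1 of them may also report another. Neither probe sequences nor the RT1 haplotypes of these rats were used here. At an RT1 probe, less RNA and RNA of a different RT1 sequence therefore cannot be told apart, and rises and falls of RT1 genes below are those of a probe's signal.

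Signals are on the log2 scale after each array's 75th percentile was subtracted, so a value of 0 is a spot as bright as that percentile. Well above background means that the scanner software marked the spot so. On the control arrays 58.9 to 61.5% of spots were well above background, against 69.3 to 71.9% on the Eucommia arrays. The control arrays lay on 1 slide and the Eucommia arrays on the other, and the slides were scanned separately. For every difference below, the slide and the treatment cannot be told apart. Across all features 24.6% were called by limma at an adjusted p under 0.05 (Benjamini-Hochberg over all 25128), 18.4% higher and 6.24% lower in the Eucommia group. Of the called features 74.6% were higher, and 58.8% were with quantile normalization, 59.6% with normexp background correction and quantile normalization, 42.1% without a filter on dim probes and 31.9% with median centring. Over all features the median log2 fold change was 0.02, and -0.24 under that last setting. The hepatocyte markers Alb, Apoa1, Ttr, Serpina1, Tat, Cps1, Cyp2e1, Hnf4a and Asgr1 were well above background on all 8 arrays, so the tissue read as liver.

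Of the class I pathway genes tested, 4 of 9 fell in the Eucommia livers and none rose. Psmb8, RT1-CE16, RT1-A3 and Tap1 were the genes that fell, or 44.4%, beside 6.24% of all features and 5.97% of the 9262 features brighter on average than the 75th percentile. For a rise the count was 0 of 9 by limma, against 18.4% of all features but only 3.94% of the bright ones. At an unadjusted p under 0.05 it was also 0. All 9 log2 fold changes (Eucommia minus control) were negative, with a median of -0.43, where 47.6% of all features and 57.8% of the bright ones were negative and the median over all features was 0.02. The same 4 genes were those whose control and Eucommia arrays did not overlap. Non-overlapping lower values were found for 8.81% of all features and 10.5% of the bright ones. None of the 9 had non-overlapping higher values, beside 19.8% of all features and 635 of the 9262 bright ones. In bulk tissue, fewer cells of a type and less RNA per cell cannot be told apart. RT1-A3 was above background on all control arrays and 1 Eucommia array, so it entered the test through the group where it was high. Of the 8 genes above background on all 8 arrays, 3 fell. The calls of Psmb8 and RT1-CE16 held in all 24 settings tried, and RT1-A3 in all 23 that kept it. Tap1 held in 10 of 24.

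**Figure D1:**
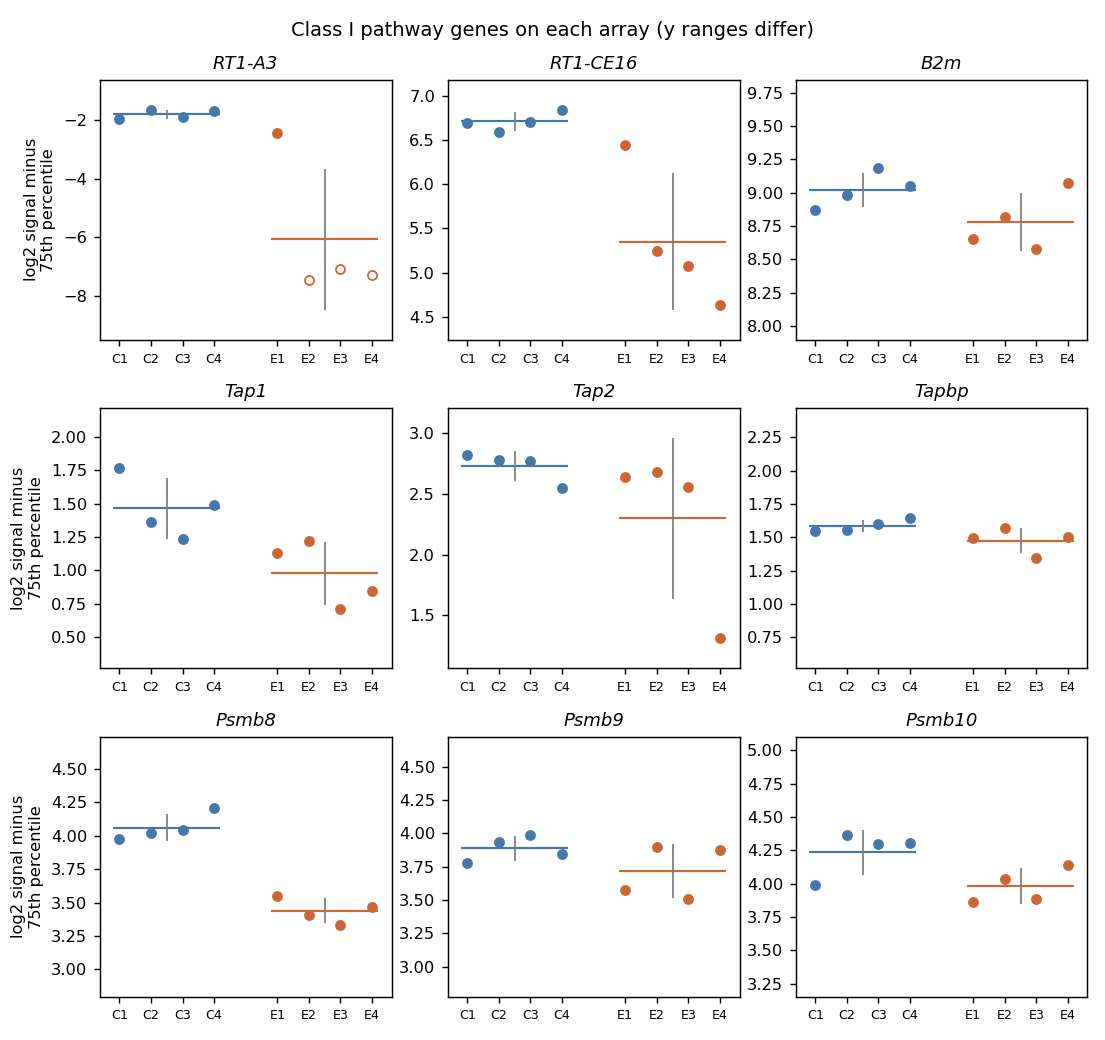
Log2 signal minus the array's 75th percentile (y axis, range differs by panel) of 9 class I pathway genes on 4 control (C1 to C4) and 4 Eucommia arrays (E1 to E4). Horizontal lines are group means, vertical lines 1 SD, and open circles mark arrays where the spot was not well above background. RT1-A3 is open on 3 Eucommia arrays, and the Psmb8 groups lie apart, at 3.97 to 4.21 against 3.33 to 3.55.

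The heavy chains showed the largest differences. The promoters of RT1-A3 and RT1-CE16 are printed because both genes fell. Each window runs from 250 bases before the annotated start to 50 after it (RefSeq, build GRCr8), at chr20:4849201-4849500 for RT1-A3 and chr20:3265394-3265693 for RT1-CE16, written along the gene's strand. Capitals mark TGACG, the core letters of the cyclic AMP response element.
RT1-A3: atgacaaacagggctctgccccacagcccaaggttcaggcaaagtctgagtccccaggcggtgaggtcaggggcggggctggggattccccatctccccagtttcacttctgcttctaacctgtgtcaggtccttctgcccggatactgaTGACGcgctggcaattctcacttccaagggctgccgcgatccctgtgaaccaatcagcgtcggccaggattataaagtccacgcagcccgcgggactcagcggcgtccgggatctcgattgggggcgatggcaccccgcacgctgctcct
RT1-CE16: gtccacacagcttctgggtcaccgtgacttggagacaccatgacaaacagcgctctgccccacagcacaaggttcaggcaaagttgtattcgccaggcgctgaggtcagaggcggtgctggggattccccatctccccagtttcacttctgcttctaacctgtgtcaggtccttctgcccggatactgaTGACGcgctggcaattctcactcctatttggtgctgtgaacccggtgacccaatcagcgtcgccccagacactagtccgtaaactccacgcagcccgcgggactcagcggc
When aligned, 228 of 254 positions were identical (89.8%), with 7 gap positions. The promoters of other RT1 chains were not aligned, and a link between this identity and the falls was not tested. TGACG, searched on both strands, occurs in 21.2% of 33469 promoter windows of this length, and B2m and Psmb9 also hold it. A match describes letters and is not evidence of a site in use.

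RT1-A3, a class I heavy chain of the RT1-A region, was dim in control livers and below background in most Eucommia livers. Its log2 signal was -1.95, -1.65, -1.90 and -1.68 on control arrays 1 to 4. On Eucommia arrays 1 to 4 it was -2.45, -7.45, -7.10 and -7.28. Control arrays were alike, Eucommia array 1 lay just under them, and Eucommia arrays 2, 3 and 4 lay far below. In unscaled signal the control arrays read 66.2, 67.5, 58.0 and 74.2, and the Eucommia arrays 40.3, 1.19, 1.55 and 1.30. By the scanner flag it was detected above background on each of the 4 control arrays but, of the Eucommia arrays, on array 1 alone. On Eucommia arrays 2, 3 and 4 the lowest log2 signal of any spot well above background was -5.20, -5.16 and -5.06, so the order of values under these is not informative. The fitted log2 fold change was -4.28 ± 1.01 (SE, adjusted p = 0.0137 by limma), and without Eucommia array 1 it was -5.48, but its size depends on how signals below background are treated. With every signal under -4.08 raised to that common floor, the highest of the 8 arrays' lowest signals well above background, it was -1.88 (adjusted p = 0.0113 by limma). With normexp background correction, which adds an offset to dim spots, it was -0.92 (adjusted p = 0.00386).

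RT1-CE16, a heavy chain of the RT1-C/E region, was bright on every array. Its log2 signal was 6.70, 6.59, 6.70 and 6.84 on the control arrays and 6.44, 5.25, 5.08 and 4.64 on Eucommia arrays 1 to 4. The groups did not overlap, but Eucommia array 1 lay close to the controls and the other three at least 1 log2 unit below it. The mean fell from 6.71 ± 0.10 to 5.35 ± 0.77 (SD, n = 4 in each group), a log2 fold change of -1.36 ± 0.33 (SE, adjusted p = 0.0163 by limma), or 0.391 of the control level. Leaving out 1 array at a time gave log2 fold changes of -1.72 to -1.12, and the first of these came without Eucommia array 1.

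B2m, the light chain that every class I molecule needs, was among the brightest genes and did not pass the test. Its log2 signal was 8.87, 8.98, 9.18 and 9.05 on control arrays and 8.65, 8.81, 8.58 and 9.07 on Eucommia arrays, and the groups overlapped. The difference was -0.24 ± 0.13 (log2, SE; adjusted p = 0.220 by limma, 95% interval -0.53 to 0.05), and by the second B2m probe it was -0.14 ± 0.12. The differences between groups of the heavy chains RT1-A3 and RT1-CE16 were thus larger in size than that of their shared partner. Whether genes differed in this was not tested.

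The rest of the class I chains went both ways, chain by chain. Of 43 listed classical and non-classical chains and class I-like genes, 22 had a probe and 20 were tested. Of these, 4 fell and 2 rose, with a median log2 fold change of -0.04, where 6.24% of all features fell and 18.4% rose. The number of calls was 4 to 8 in settings other than median centring. RT1-CE2 had log2 signals of 6.91, 6.84, 7.0 and 7.05 in control and 6.60, 6.24, 6.14 and 5.81 in Eucommia livers, a fall by 0.75 ± 0.16 (SE, adjusted p = 0.00755 by limma). RT1-CE3 read 4.77, 4.62, 4.83 and 4.87 in control and 4.69, 3.18, 2.98 and 3.05 in Eucommia livers. Eucommia array 1 lay inside the control range of RT1-CE3, and the fall by 1.30 ± 0.35 (adjusted p = 0.0257 by limma) rests on Eucommia arrays 2, 3 and 4. The RT1-CE3 call was lost without control array 1, 3 or 4 or without Eucommia array 2, 3 or 4 (adjusted p by limma up to 0.0732), and with array weights (0.0567).

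Among the class I-like genes, Hfe, which tunes iron uptake with the transferrin receptor, fell by 0.55 ± 0.13 (log2, SE; adjusted p = 0.0125 by limma). Cd1d1, which presents lipids to NKT cells, fell by 0.36 ± 0.10 (adjusted p = 0.0276). The Cd1d1 call was lost without control array 1, 2 or 3 or Eucommia array 2 or 3 (adjusted p by limma up to 0.0830), and with the replicate number as a block (0.0823). RT1-M5 rose by 1.34 ± 0.11 (adjusted p = 3.07e-05), from -1.80, -1.46, -1.48 and -1.57 to -0.41, -0.16, -0.16 and -0.23, with no overlap. RT1-T18 rose by 0.99 ± 0.18 (adjusted p = 0.00378) by the probe that was brighter over all 8 arrays, had -0.49 by the other, and had 0.25 as the mean of both (adjusted p = 0.416). On the control arrays alone that other probe was the brighter, so the choice of probe followed the Eucommia signal. RT1-S3 (-0.27, adjusted p = 0.0807) and RT1-CE10 (0.56, adjusted p = 0.148) did not pass, though RT1-CE10 did without Eucommia array 1 (0.83, adjusted p = 0.00395).

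Probes of the same RT1 gene also disagreed, in the following examples picked once the values were known. The 2 probes of RT1-A2 had log2 fold changes of 0.12 and -0.82, those of RT1-CE5 had -0.11 and -1.57, and those of RT1-CE4 had -0.08 and -0.32. With every probe as its own feature, the more negative ones had adjusted p = 0.0122, 0.000299 and 0.191 by limma, in that order. None of these is in the counts of chains above, which use 1 probe per gene. The RT1-A2 probe with -0.82, brighter on the control arrays but dimmer over all 8, read 6.38, 6.33, 6.48 and 6.55 in control and 6.11, 5.73, 5.45 and 5.16 in Eucommia livers, the same order of Eucommia arrays as RT1-CE16 and RT1-CE2. A value for an RT1 gene therefore belongs to its probe.

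Eucommia array 1 stood apart from the other Eucommia arrays at several of these probes. At 4 of 21 RT1 class I probes, Eucommia array 1 was within 0.5 log2 units of the control mean and Eucommia arrays 2, 3 and 4 were each more than 0.5 below it. These were RT1-CE16, RT1-CE2, RT1-CE3 and that RT1-A2 probe. At 1 of 21, RT1-CE10, the other Eucommia arrays were more than 0.5 above it. Over all 27724 probes kept, 1.11% and 0.667% met these conditions. This description was made after the values were seen and has no test. Whether the rats carried different RT1 haplotypes was not tested either.

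**Figure D2:**
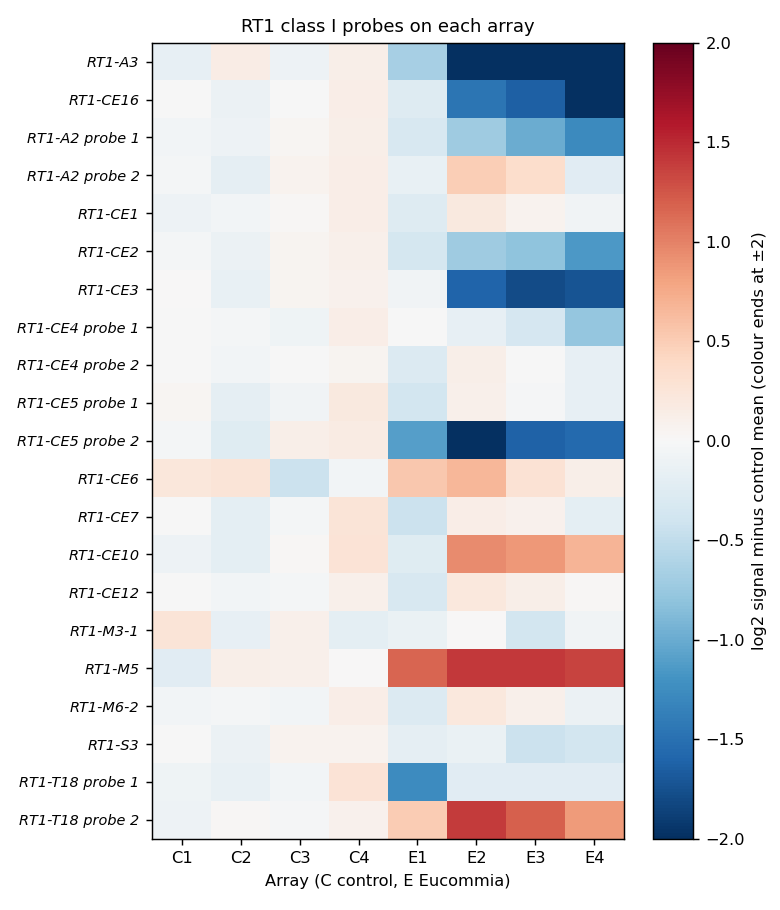
Log2 signal minus the control mean (colour, ending at ±2) of 21 RT1 class I probes (rows) on 4 control (C1 to C4) and 4 Eucommia arrays (E1 to E4). RT1-A3, RT1-CE16 and RT1-CE3 are dark blue on E2, E3 and E4 and paler on E1, and RT1-M5 is red on all 4 Eucommia arrays.

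The genes closest in pattern to RT1-A3 were sought among all tested genes with an established symbol. Each gene was centred on its own mean over the 8 arrays, and likeness was the mean absolute difference in log2 units. The 5 nearest were Sult2a2, Cyp4v3, RT1-CE3, RT1-CE16 and Zfp458, but 3 of the 8 RT1-A3 values were below background, so their order and distances are not informative. Cyp4v3, a fatty acid hydroxylase, read 2.04, 2.96, -5.55 and 1.94 in control and 1.75, -4.86, -4.87 and -4.93 in Eucommia livers. Cyp4v3 was thus low on Eucommia arrays 2, 3 and 4 as RT1-A3 was, and low on control array 3 as RT1-A3 was not. Those nearest to Psmb8 were Gemin4 (0.07), Mtf1 (0.08), Mpdu1 (0.08), Rab8b (0.08) and Rdh10 (0.08), beside a deviation of 0.31 for Psmb8.

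Peptide transport and loading differed less. The promoter of Tap1 is shown because Tap1 fell and because it lies head to head with Psmb9, with Psmb8 and Tap2 next to them. It spans chr20:4668494-4668793 (GRCr8, minus strand), and 44 bases of its window lie in that of Psmb9. Capitals mark a match to the interferon-stimulated response element, GAAANNGAAA, which is on the opposite strand.
Tap1: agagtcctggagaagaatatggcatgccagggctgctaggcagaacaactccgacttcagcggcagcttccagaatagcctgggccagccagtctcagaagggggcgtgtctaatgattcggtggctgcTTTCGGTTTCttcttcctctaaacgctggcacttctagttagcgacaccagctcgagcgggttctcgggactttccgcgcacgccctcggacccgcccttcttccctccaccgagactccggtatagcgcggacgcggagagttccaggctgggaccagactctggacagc
This motif, searched on both strands, was in 6 of the 9 promoter windows found, against 3.92% of all 33469 windows. The matched letters, written on the motif's strand, are given below for the genes with 1 match or, for Tapbp and Psmb10, 2. The Tapbp matches share 4 bases.
Tap1: GAAACCGAAA
Tap2: GAAAGCGAAA
B2m: GAAACTGAAA
Psmb8: GAAAGCGAAA
Tapbp: GAAAATGAAA
Tapbp: GAAAGTGAAA
Psmb10: GAAAGTGAAA
Psmb10: GAAAGCGAAA
Psmb9, RT1-A3 and RT1-CE16 had no match to these letters in the window. Only these exact letters were searched, so an element spelled otherwise would be missed. Genes with a match include Psmb8 and Tap1, which fell, and B2m, Tap2, Tapbp and Psmb10, which did not pass.

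Tap1, 1 chain of the peptide pump, had log2 signals of 1.77, 1.37, 1.23 and 1.49 in control and 1.13, 1.22, 0.71 and 0.85 in Eucommia livers. The groups were adjacent without overlapping. The fall by 0.49 ± 0.15 (log2, SE) stood at the threshold (adjusted p = 0.0499 by limma). The Tap1 call was lost without control array 1, 2 or 4, without Eucommia array 1, 3 or 4 (adjusted p by limma up to 0.122), and under 8 other settings (0.0510 to 0.105).

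Tap2, the other chain of the pump, read 2.82, 2.77, 2.76 and 2.54 in control and 2.64, 2.68, 2.55 and 1.31 in Eucommia livers. Eucommia array 4 was low and the other arrays were close together. The difference of -0.43 ± 0.29 (log2, SE) missed the threshold (limma adjusted p = 0.328), and without Eucommia array 4 it was -0.10. Tapbp, the tapasin gene, read 1.54, 1.55, 1.60 and 1.64 in control and 1.49, 1.57, 1.34 and 1.50 in Eucommia livers, with overlap. Its difference was -0.11 ± 0.09 (adjusted p = 0.408, 95% interval -0.30 to 0.08).

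Of the immunoproteasome genes, Psmb8 fell and the others did not pass. Psmb8 encodes the chymotrypsin-like subunit that replaces Psmb5. Its promoter is printed because Psmb8 had the smallest p of all 9 genes. It spans chr20:4656982-4657281 (GRCr8, minus strand), with capitals on a match to the gamma-activated site, TTCNNNGAA, and on the interferon motif given above, which overlaps the annotated start.
Psmb8: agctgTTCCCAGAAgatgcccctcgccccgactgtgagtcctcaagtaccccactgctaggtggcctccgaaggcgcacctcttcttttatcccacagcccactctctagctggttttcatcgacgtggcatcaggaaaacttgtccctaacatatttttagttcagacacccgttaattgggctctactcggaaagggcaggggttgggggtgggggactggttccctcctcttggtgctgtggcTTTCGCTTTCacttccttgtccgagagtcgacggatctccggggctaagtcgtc
The gamma-activated site motif occurs in 8.87% of all windows and in none of the other members' windows. Psmb8 had log2 signals of 3.97, 4.02, 4.05 and 4.21 in control and 3.55, 3.40, 3.33 and 3.47 in Eucommia livers. The arrays of each group lay close together, and the groups were apart by more than either group's range. The mean fell from 4.06 ± 0.10 to 3.44 ± 0.09 (SD, n = 4 in each group), or 0.649 of the control level (log2 fold change -0.62 ± 0.09 SE, adjusted p = 0.00105 by limma). Over the 24 settings the log2 fold change of Psmb8 ran from -0.88 to -0.47, and the adjusted p reached 0.0111 at most.

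Psmb9, which replaces Psmb6, read 3.78, 3.94, 3.99 and 3.85 in control and 3.57, 3.90, 3.51 and 3.87 in Eucommia livers, with overlap. The difference was -0.17 ± 0.12 (log2, SE; adjusted p = 0.332 by limma). Psmb10, which replaces Psmb7, read 3.99, 4.36, 4.30 and 4.30 in control and 3.86, 4.04, 3.88 and 4.14 in Eucommia livers. Control array 1 lay within the Eucommia range, and the difference of -0.26 ± 0.12 did not pass (adjusted p = 0.149). Psmb9 lay beside Tap1 on the chromosome, yet the Psmb9 arrays overlapped where those of Tap1 did not.

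The constitutive subunits Psmb5, Psmb6 and Psmb7 had log2 fold changes of 0.02 ± 0.09, -0.09 ± 0.09 and 0.08 ± 0.10 (SE). None of these 3 passed limma, nor reached an unadjusted p under 0.05. Within an array, the log2 ratio of an immunoproteasome subunit to the subunit it replaces was compared between groups with a 2-sided exact permutation test, adjusted over the 3 pairs. The smallest p that 4 arrays against 4 allow is 0.0286. The Psmb8 over Psmb5 ratio was lower by 0.65 log2 units in the Eucommia group, with no overlap (exact p = 0.0286, adjusted p = 0.0429). Relative to the control mean it was -0.08, -0.08, -0.01 and 0.18 on control arrays and -0.44, -0.65, -0.72 and -0.77 on Eucommia arrays. The Psmb10 over Psmb7 ratio was also lower on every Eucommia array, by 0.34 log2 units on average (exact p = 0.0286, adjusted p = 0.0429). It was -0.17, 0.22, 0.04 and -0.09 on control arrays and -0.31, -0.30, -0.39 and -0.35 on Eucommia arrays. The Psmb9 over Psmb6 ratio differed by -0.08 log2 units with overlap (exact p = 0.514). With any 1 control array left out both calls held (adjusted exact p = 0.0429). With any 1 Eucommia array left out neither call held (adjusted exact p = 0.0571 to 0.0857). The Psmb8 over Psmb5 difference was then -0.71 to -0.60 and that of Psmb10 over Psmb7 -0.35 to -0.32, close to the values above. With normexp background correction the differences were -0.58 and -0.20 (adjusted exact p = 0.0857).

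**Figure D3:**
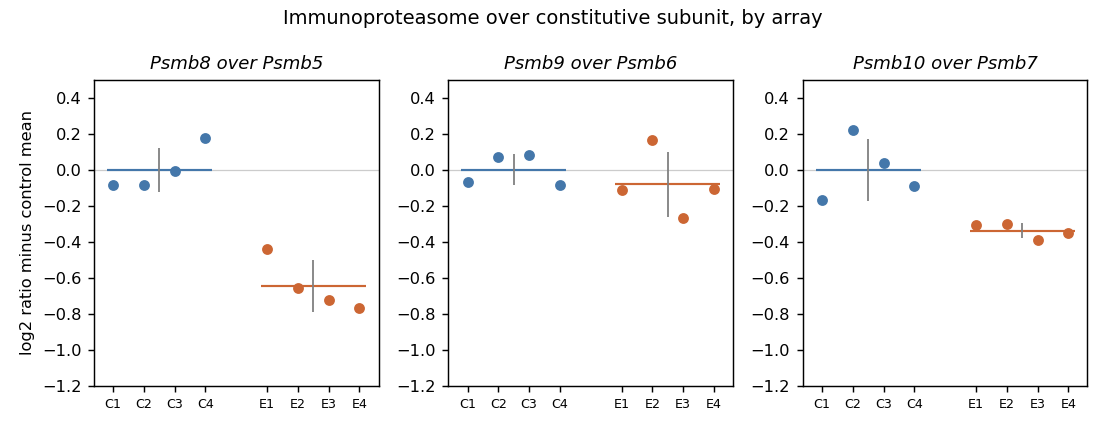
Log2 ratio of each immunoproteasome gene to the constitutive subunit it replaces, minus the control mean (y axis), on 4 control (C1 to C4) and 4 Eucommia arrays (E1 to E4). Horizontal lines are group means and vertical lines 1 SD. For Psmb8 over Psmb5 and Psmb10 over Psmb7 all Eucommia points lie under all control points, and for Psmb9 over Psmb6 they overlap.

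**Figure D4:**
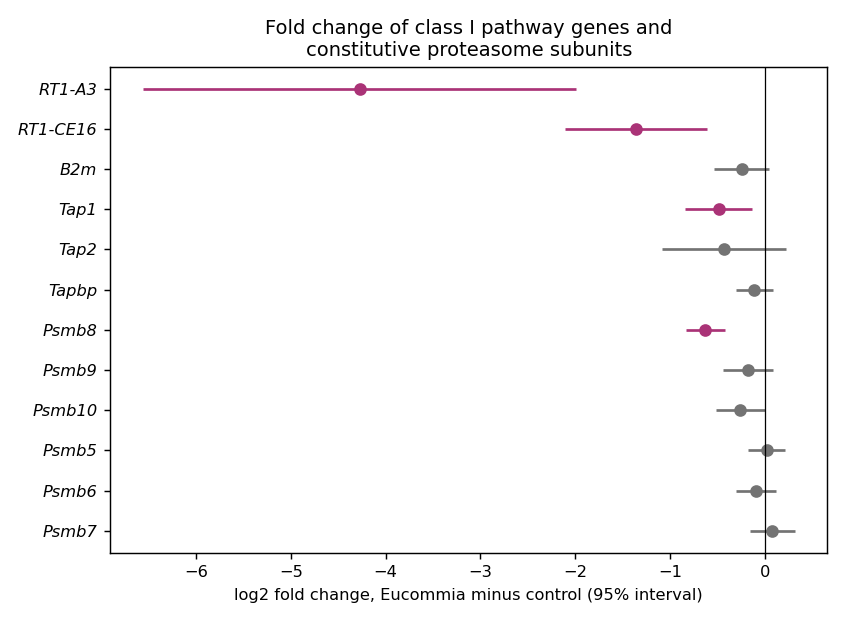
Log2 fold change, Eucommia minus control (x axis, with the 95% interval from limma), of 9 class I pathway genes and 3 constitutive proteasome subunits. Coloured points passed an adjusted p of 0.05 (RT1-A3, RT1-CE16, Tap1 and Psmb8), and the widest interval is that of RT1-A3.

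Among folding and trimming factors for class I, 1 of 14 tested rose and 0 fell by limma, beside 18.4% and 6.24% of all features. At an unadjusted p under 0.05, 3 were lower and 1 higher, and the median log2 fold change was -0.09. Thop1, a cytosolic peptidase that destroys peptides, rose by 0.66 ± 0.09 (SE, adjusted p = 0.000603), from a mean of 2.02 ± 0.07 to 2.68 ± 0.10 (SD, n = 4 in each group). Calr, the calreticulin chaperone of the loading complex, had -0.41 (adjusted p = 0.0856), and Bcap31, an export receptor, had -0.28 (adjusted p = 0.103). The proteasome activator genes Psme1 and Psme2 had -0.01 and -0.04, and were named after their values were seen.

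Of 19 regulators of class I genes tested, 2 fell and 1 rose, beside 6.24% and 18.4% of all features. The median log2 fold change was -0.17. Irf9, the DNA-binding part of the interferon-induced complex, fell by 0.37 ± 0.12 (SE, adjusted p = 0.0459 by limma), and Jak1, a kinase of interferon receptors, by 0.36 ± 0.09 (adjusted p = 0.0193). Stat2, a partner of Irf9, had -0.25 (adjusted p = 0.0637) and Nfya, a promoter-binding factor, 0.37 (adjusted p = 0.0549). Socs1, a feedback inhibitor of the Jak kinases, was flagged as detected on 0 control arrays and on 4 Eucommia arrays, so it entered the test through the group where it was high. Its signal was 1.73-fold higher in the Eucommia livers with the main processing (adjusted p = 0.000277 by limma), and nothing is read from this call. A fold written below as at least a value sets the Eucommia mean against a control value for each array. That value is the higher of the dim signal and the array's lowest signal well above background. Such a bound holds for the main processing only, and for Socs1 it equals the fold itself. With normexp background correction the log2 fold change of Socs1 was 0.06 (adjusted p = 0.312). The Irf9 call was lost without control array 1, 2 or 4 or Eucommia array 1, 3 or 4 (adjusted p by limma up to 0.115) and under 4 other settings (0.0539 to 0.0942). That of Jak1 was lost without Eucommia array 2 (0.0535) and with the replicate number as a block (0.0823). A dimmer Jak1 probe, picked once the values were known, was lower without overlap. It read 0.19, 0.13, -0.02 and -0.22 in control and -0.65, -0.97, -0.94 and -1.42 in Eucommia livers. Ifng, the gene for interferon gamma, had a spot well above background on 1 of 8 arrays and was not tested.

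Class II genes present peptides from outside the cell. By limma 1 of 7 tested fell and 0 rose, beside 6.24% and 18.4% of all features. At an unadjusted p under 0.05, 2 were lower and 0 higher, and the median log2 fold change was -0.32. Cd74, the invariant chain, fell by 0.53 ± 0.16 (SE, adjusted p = 0.0433). The Cd74 call was lost in each fit that left out an array other than control array 3 (adjusted p up to 0.108) and under 7 other settings (0.0504 to 0.0905). Ciita, the class II counterpart of Nlrc5, had -0.64 (adjusted p = 0.0520), and RT1-Db1 had -0.36 (adjusted p = 0.185) by its brightest probe. With every probe as its own feature, a dimmer RT1-Db1 probe had -0.71 without overlap (adjusted p = 0.0259 by limma). The dimmest RT1-Db1 probe, above background on 1 control and 3 Eucommia arrays, had 0.52 (adjusted p = 0.507). The dimmer RT1-Da probe had -0.72 with overlap (adjusted p = 0.0466), and the brighter probe had -0.32 (adjusted p = 0.257). These dimmer probes were picked once the values were known and are not in the counts above. The 2 probes of RT1-Bb disagreed, a comparison made after the values were seen. The dimmer one read 0.73, 0.31, -0.08 and 0.05 in control and -0.49, -5.30, -5.16 and -6.26 in Eucommia livers, and the brighter one had a log2 fold change of -0.03. Eucommia array 1 was again the one Eucommia array near the controls at the dimmer RT1-Bb probe.

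Markers of the cell types a liver piece can hold were read beside these genes, and their part in the class I result was not tested. Summed levels are sums over a list's tested genes of the linear signal in units of the array's 75th percentile. For the counts that follow, 24.6% of all features passed limma in either direction, and 9.91% of the 9262 brighter than the 75th percentile. Kupffer cell and macrophage markers were all negative, 11 of 11, where 47.6% of all features and 57.8% of the bright ones were negative. Their median log2 fold change was -0.51. By limma 0 of these 11 passed, and 2 were lower at an unadjusted p under 0.05, Marco (-1.10, adjusted p = 0.0653) and Aif1 (-0.52, adjusted p = 0.0711). Their summed level was 131 to 211 on control and 96.8 to 154 on Eucommia arrays. Hepatocyte markers had a median of -0.17 with 0 of 9 past limma's threshold and 2 lower at an unadjusted p under 0.05, Ttr (-0.27) and Apoa1 (-0.29), and summed levels of 3661 to 4045 and 3278 to 3822. Both lists thus had negative medians, as the class I genes did, and their summed levels overlapped between groups.

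T and NK cell markers, from cells that read class I, gave 2 of 12 tested higher and 0 lower, with a median of 0.19. That is 16.7%, near the 18.4% of all features called higher. Of the 12, Ncr1 (0.68) was above background on 4 Eucommia and 0 control arrays, and Cd5 (0.40) on 4 and 1. Both entered the test through the group where they were high, and nothing is read from their place in the median or the counts. They were named after their values were seen. Cd8b, a chain of the CD8 co-receptor, rose by 1.41 ± 0.15 (SE, adjusted p = 0.000130 by limma) and Cd3d, a chain of the T cell receptor complex, by 0.85 ± 0.12 (adjusted p = 0.000703). Cd3e (-0.53) and Cd8a (0.14), named after their values were seen, did not pass. The summed level was 5.27 to 8.29 on control and 7.45 to 9.42 on Eucommia arrays, and Cd2 was not well above background on any array.

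For the lists that follow, the share of all features called higher is again 18.4%. Endothelial markers gave 2 of 6 higher, Cdh5 (1.01) and Eng (0.45), with summed levels of 81.2 to 98.8 and 73.0 to 84.9. They went both ways, with 3 of 6 negative and a median of 0.14. The negative ones, named after their values were seen, were Kdr (-0.26), the brightest, Tek (-0.44) and Lyve1 (-0.17). At an unadjusted p under 0.05, 3 were higher and 1 lower. Pecam1 (1.09), 1 of these 3, was above background on 4 Eucommia arrays and 0 control arrays. It entered the test through the group where it was high, and nothing is read from its place in the median or the counts. Pecam1 was also named after its values were seen. Eng was not called without control array 2 or 3 or Eucommia array 2, 3 or 4 (adjusted p by limma up to 0.0820), with the replicate block (0.0837) or with median centring (0.19, adjusted p = 0.311). Stellate cell markers gave 1 of 7 higher, Col1a1 (0.83, and 0.31 as the mean of its probes), with Reln at 0.60 (adjusted p = 0.0584), and summed levels of 23.2 to 35.8 and 33.9 to 42.7. Bile duct markers gave Cftr at least 2.75-fold higher and Epcam lower (-0.52) of 4 tested, with summed levels of 1.51 to 2.19 and 1.45 to 1.59. Epcam was not called without Eucommia array 2 (adjusted p by limma = 0.0546).

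The remaining lists were dim. Elane, Csf3r and Cftr were above background on 4 Eucommia arrays and 0 control arrays, and Ccr7 on 4 and 1, so these entered the test through the group where they were high and nothing is read from their counts. Neutrophil markers gave Elane (at least 2.67-fold) and Csf3r (at least 1.16-fold) higher of 4 tested, with summed levels of 0.255 to 0.544 and 0.402 to 0.532, and Cxcr2 was not well above background on any array. Dendritic cell markers gave Ccr7 (1.15) higher of 3 tested, with Batf3 at 0.06, and summed levels of 0.741 to 1.46 and 0.835 to 1.60. With a common floor Ccr7 had 0.40 and Csf3r 0.14, and the Csf3r call was lost (adjusted p by limma = 0.348). With normexp Ccr7 had 0.13, and its call was lost (0.100). The folds written as at least a value hold for the main processing only. Over the settings that kept them, the lowest log2 fold change was 0.39 for Elane and 0.46 for Cftr. B cell markers gave 0 of 2 called by limma, 0 at an unadjusted p under 0.05, with Cd79b at 0.07 and Blk at -0.13, and summed levels of 0.130 to 0.198 and 0.148 to 0.180. Cr2, a complement receptor gene listed as a B cell marker, was not well above background on any array.

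**Figure D5:**
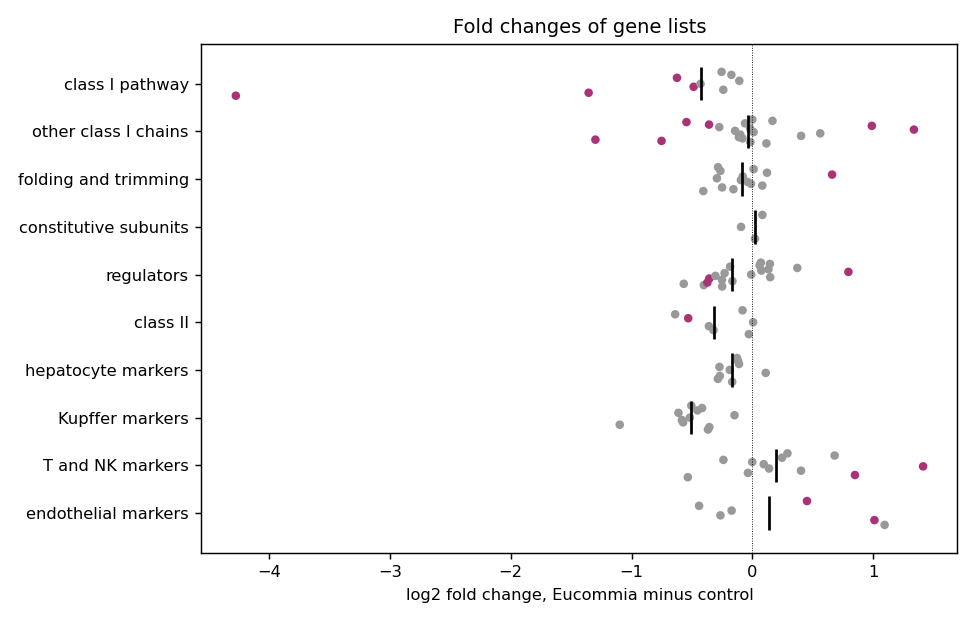
Log2 fold change, Eucommia minus control (x axis), of each tested gene in 10 lists (rows). Coloured points passed an adjusted p of 0.05 and vertical bars are list medians. The class I pathway genes lie under 0 with a median of -0.43, and the Kupffer markers also lie under 0 with no coloured point.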

How the data were processed

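Rat liver RNA (8 samples, 500 ng each) was hybridised to 1-colour Agilent arrays. The authors deposited intensity values, which Agilent Feature Extraction 10.1.1.1 wrote (per the submitters' processing notes and the file headers), background-subtracted within each array and not scaled between arrays. Besides these, the deposited tables carry yes-or-no flags (units of the kind other) for control, dim, saturated and outlier spots. The deposited series table held the same intensities at 100% of 43379 non-control spots. Control and outlier spots were left out, no spot was saturated, and spots of a probe were averaged as log2 signal minus the array's 75th percentile. Probes well above background on at least 4 of 8 arrays were kept (27724 of 41012). Unversioned accessions matched a RefSeq table of build GRCr8 for 39.8% of probes. The array design uses build rn4, so probe coordinates are not given, and those printed are of promoter windows in GRCr8. A gene is its brightest probe, and an unnamed probe is its own feature.

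Groups were compared with limma 3.58.1 (R 4.3.3), 2-sided, calling features at an adjusted p (Benjamini-Hochberg) under 0.05. The test was checked on simulated data. The number of arrays limits the precision. Named genes are the 10 class I genes, the constitutive subunits, genes past the threshold and the 2 next of each other pathway list, and 2 of each marker list. Other names are said to be chosen after values were seen. The members and lists were chosen with earlier results of these data known. Alternatives covered scaling, background correction (normexp on median signals, offset 50), the filter, probe choice, variance, a replicate block and each array left out with the features kept. Cyclic loess, a common floor for dim signals and the subunit ratios were added after seeing the data.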

Additional observations from a re-analysis of the deposited data

Results flagged for a closer look

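At 50 probes of the class I, class II and constitutive subunit genes, each group of 4 arrays was searched for 1 array far from the rest, by Dixon's criterion (the gap to the nearest array over the group's range). Of 100 groups 6 met it, and chance gives about 1 in 20. RT1-A3 was -2.45 (log2) on Eucommia array 1, with the others at -7.10 or below, all under background. RT1-CE3 was 4.69 on Eucommia array 1, with the others at 3.18 or below. The RT1-T18 probe that was dimmer over all 8 arrays was -0.81 on Eucommia array 1, with the others at 0.22 and a control mean of 0.45. Tap2 was 1.31 on Eucommia array 4, with the next at 2.55. Hfe was 0.51 on control array 4, with the next at 0.09, and RT1-M6-2 was 6.72 on control array 4, with the next at 6.55.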

How the results depend on the processing

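Across 23 alternatives the 9 class I genes kept their negative sign with 0 exceptions. Their count of called genes, 4, stayed between 3 and 4, except that median centring, which moves all features down, called 8. That setting also called 10 other class I chains (6 as reported, 4 to 8 elsewhere), 9 folding and trimming genes (1), 9 regulators (3), 4 class II genes (1) and 24 marker genes (10). Without a filter 6 regulators and 4 class II genes were called. With a filter on all 8 arrays 6 marker genes were called, among fewer genes tested. Class II calls numbered 0 by limma when the percentile was taken over probes detected on all arrays, with a filter of at least 1 array with array weights and with a common floor (2 lower at an unadjusted p under 0.05 in the main comparison). They numbered 2 with normexp, the mean over probes or trended robust variance, and 4 with every probe on its own. Leaving out 1 array gave 0 to 1 class II calls, with 0 in 5 of the 8 fits (control replicates 1 and 2, Eucommia replicates 1, 3 and 4). The causes were not tested.

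Of the genes followed across settings, those that changed sign had not passed in either setting. Psmb5 had -0.24 with median centring, -0.015 with array weights and -0.030 to 0.054 with 1 array left out (lowest without Eucommia replicate 4). Psmb7 had -0.18 with median centring. Nfya had -0.0054 and Ttr 0.028 with normexp, and Blk 0.029 with array weights. With quantile normalization, median centring, normexp and cyclic loess, Cd79b had -0.20, -0.19, -0.033 and -0.15, and Batf3 had -0.11, -0.20, -0.068 and -0.055. With 1 array left out Cd79b ran from -0.0078 (without control replicate 1) to 0.23 and Batf3 from -0.034 (without control replicate 3) to 0.12.

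Arrays with the same replicate number did not deviate together (r from -0.104 to -0.0288), and 0 of 4 control arrays correlated best with their own number. With the replicate block 4 class I genes, 5 other chains, 1 regulator and 1 class II gene were called, the last being Ciita (adjusted p by limma = 0.0303) in place of Cd74 (0.0905). The lowest spot signal well above background averaged 12.7 on control and 5.90 on Eucommia arrays (unscaled).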
